A study of Rattus norvegicus with 40 samples.

Results

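Of 32883 genes counted, 4 were examined in microglia (the macrophages of brain and spinal cord) from the medulla and the cervical cord (C3-C6) of adult rats. They are ENSRNOG00000015972, ENSRNOG00000057527, ENSRNOG00000050156 and ENSRNOG00000046081. Of these, ENSRNOG00000015972 was high or low in the same animals in both regions, and the other 3 were high in 1 region and low in the other in 6 to 15 of the 20 animals. They were chosen from cord counts, because they were high in some cord libraries and near 0 in others and had extreme fold changes between the exposures in the female cord. Their cord values therefore choose them and are given as a description, with no test. The medulla libraries took no part in the choice. Neither the counts nor the reference table used here tie these Ensembl IDs to symbols, so the function of the 4 genes is not described.

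The 8-week-old Sprague Dawley offspring came from dams kept in intermittent hypoxia, alternating between 10.5% and 21% oxygen, or in intermittent normoxia, at 21% oxygen throughout. Exposure lasted 8 hours a day with 15 cycles per hour on gestational days 10 to 21, and all offspring were born and raised under normal housing. The groups were female hypoxia, female normoxia, male hypoxia and male normoxia animals, with 5 animals each and with 1 cord and 1 medulla library per animal (40 libraries, 20 animals). Cells were captured magnetically by the surface protein CD11b, and without gene names the microglial label could not be compared with marker genes.

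Microglia settle in the nervous system before birth and renew themselves there, so microglia of both regions descend from the same early progenitors. Whether all captured cells were microglia was not tested. The medulla holds the circuits that generate the breathing rhythm, and the cervical cord holds the motor neurons of the diaphragm. Sprague Dawley rats are an outbred stock.

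Levels are given as CPM, a gene's reads scaled to a common library total. Library totals ran from 6061346 to 24039411 reads, so 5 CPM, the level above which a gene is called on in a library, stood for 30 to 120 reads. The total of 6061346 belonged to female hypoxia medulla replicate 3, which had counts in 13379 genes, against 15094 to 18339 in the other 39 libraries. Totals moved with the groups in the cord, at 13570283 to 20650051 reads in female hypoxia libraries and 8818241 to 13327037 in female normoxia libraries. In male medullas they were 10752151 to 13299310 under hypoxia and 17741844 to 24039411 under normoxia. The part of depth in the levels below was not tested.

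**Figure D1:**
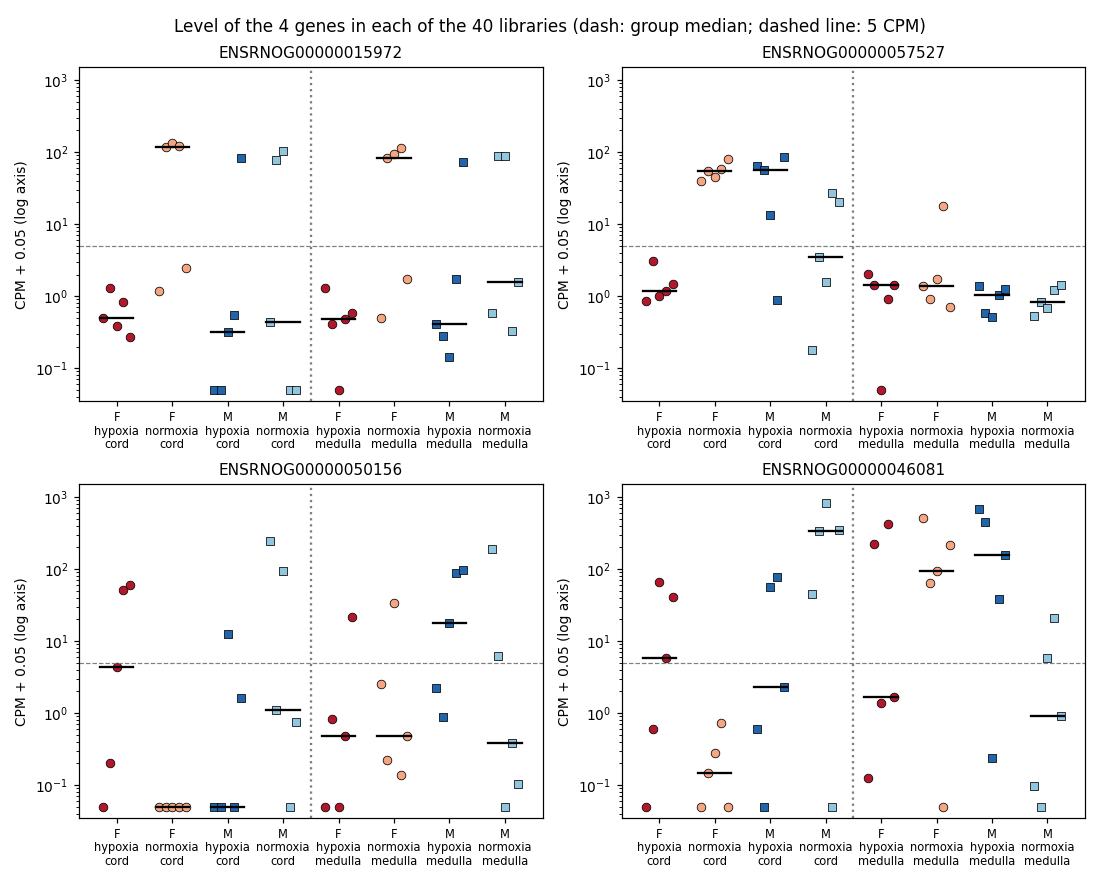
CPM of each gene in every library (points, log axis, 0.05 added), by group of sex, exposure and region, with cord groups left of the dotted line and medulla groups right of it; dashes are group medians (n = 5) and the dashed line is 5 CPM. ENSRNOG00000015972 has the same animals above the line in both regions, and ENSRNOG00000057527 is above it in 11 cord libraries and 1 medulla library.

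ENSRNOG00000015972 was on in the same 6 of 20 animals in both regions and off in the other 14 in both. In the cord it had 0.442, 1.25, 0.339, 0.78 and 0.222 CPM in female hypoxia animals 1 to 5, against 1.13, 118, 136, 123 and 2.4 CPM in female normoxia animals 1 to 5. The male cords had 0, 0, 0.269, 0.499 and 83.2 CPM under hypoxia, against 0.385, 78, 103, 0 and 0 CPM under normoxia. All 5 female hypoxia cords were thus low, and the other groups held both high and low cords, 3 high in female normoxia, 1 in male hypoxia and 2 in male normoxia.

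The medulla libraries repeated this pattern animal by animal. The female medullas had 1.26, 0.362, 0, 0.425 and 0.527 CPM of ENSRNOG00000015972 under hypoxia, against 0.444, 81.7, 95.6, 114 and 1.7 CPM under normoxia. The male medullas had 0.359, 0.228, 0.093, 1.66 and 73.6 CPM under hypoxia, against 0.534, 88.1, 88.3, 0.282 and 1.53 CPM under normoxia. No library of either region lay between 2.4 and 73.6 CPM, so the high and low values were separated by a wide gap. Within the 6 animals that were on, the level averaged 107 ± 22.9 CPM in the cord and 90.2 ± 13.7 CPM in the medulla (SD, n = 6), and the ratio of cord to medulla ran from 0.886 to 1.44. The order of those 6 animals was not shown to be shared: Pearson's r was 0.58 (exact permutation p = 0.235, two-sided) and Spearman's rho was 0.66 (exact permutation p = 0.175), over the 720 pairings, and r was 0.37 without the 2 animals farthest from the median cord level. This was the 1 relation of its kind computed, since no other of the 4 genes was on in both regions of 6 animals.

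Agreement of the regions was tested by counting the animals whose cord and medulla libraries were on the same side of 5 CPM. The test was run over the 2153 genes of the table with libraries on both sides of 5 CPM in each region, and it called 1.16% of them. ENSRNOG00000015972 agreed in 20 of 20 animals (Fisher's exact test, two-sided, p = 2.58e-05, Benjamini-Hochberg adjusted p = 0.00427). With pairings permuted only within the groups of sex and exposure, its exact p was 0.002, the smallest its values allow, and the adjusted p was 0.308; that test called 0 of the 2153 genes. Counted by animals, the gene was on in 1 of 10 hypoxia animals and 5 of 10 normoxia animals, and in 3 of 10 females and 3 of 10 males. Animals numbered 2 and 3 were on in both the female and the male normoxia group, and animal 4 was on in the female normoxia group alone. Under hypoxia, animal 5 was on in the male but not in the female group. Each exposure had 5 litters, so some of its 10 animals were littermates, while Fisher's exact test takes the 20 animals as separate. Whether the animal numbers mark litters is not stated.

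**Figure D2:**
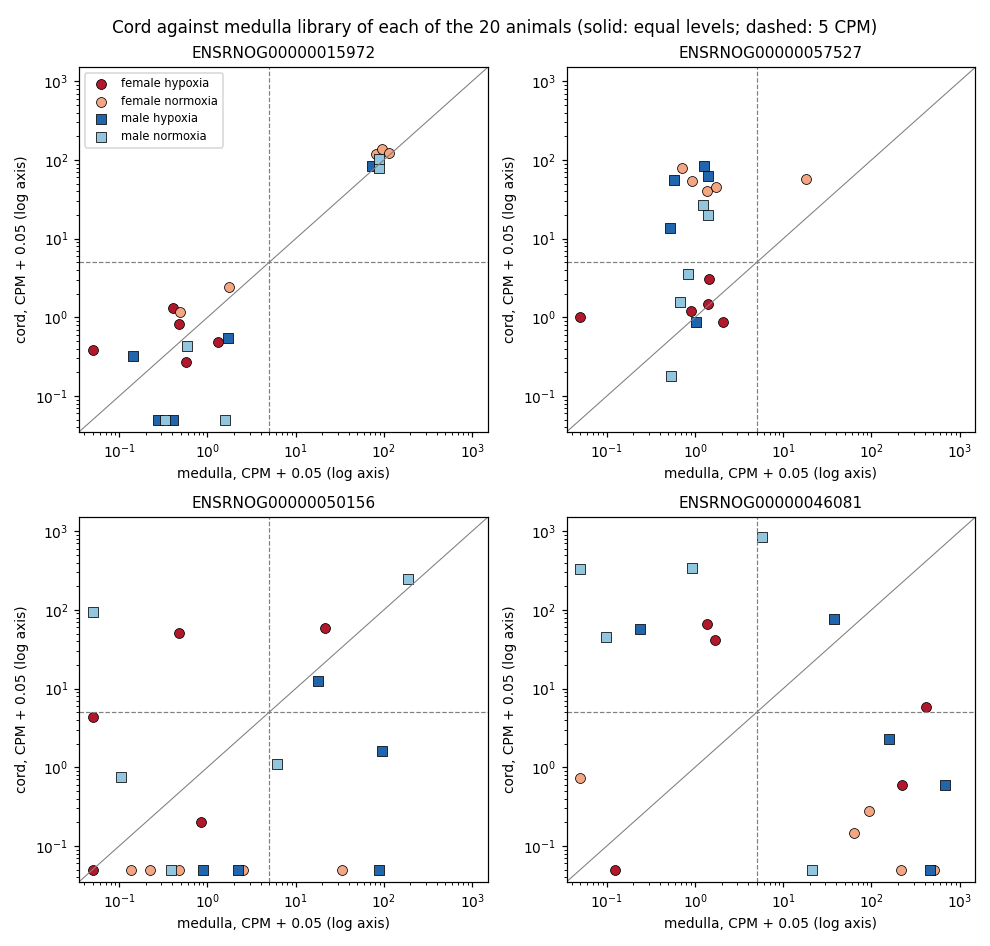
Cord level against medulla level of each gene in the 20 animals (log axes, CPM with 0.05 added), with symbols by sex and colours by exposure; the solid line marks equal levels and the dashed lines 5 CPM. For ENSRNOG00000015972, 6 animals lie in the upper right and 14 in the lower left, whereas for ENSRNOG00000046081 only 5 of 20 animals lie in those 2 corners.

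ENSRNOG00000057527 was on mostly in the cord. It was on in 11 of 20 cord libraries and in 1 of 20 medulla libraries. In the cord it had 0.811, 3.01, 0.969, 1.14 and 1.44 CPM in female hypoxia animals 1 to 5, against 39.8, 54.7, 44.9, 57.5 and 79.7 CPM in female normoxia animals. The male cords went the other way by level, with 63.2, 56, 13.5, 0.832 and 84.3 CPM under hypoxia and 0.128, 3.49, 1.5, 27.1 and 20.2 CPM under normoxia. The female cord groups did not overlap, and the male cord groups overlapped. In the order of cord medians, male hypoxia at 56 CPM and female normoxia at 54.7 CPM lay within the spread of each other. Male normoxia at 3.49 CPM and female hypoxia at 1.14 CPM followed, with ranges that overlapped each other but not that of female normoxia.

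In the medulla ENSRNOG00000057527 stayed at or below 2 CPM in 19 libraries. The exception was female normoxia medulla replicate 4, with 18 CPM or 205 reads. The regions agreed in 10 of 20 animals, with 10 on in the cord alone, 9 off in both and 1 on in both. With 11 cords and 1 medulla on, no arrangement gives a Fisher's exact p below 0.45, so this gene's agreement could not be tested. Averaged over the 4 groups of animals, its level was 27.7 ± 29.5 CPM in the cord and 1.86 ± 3.82 CPM in the medulla (SD, n = 20 each), a log2 fold change of 3.30 with SE 0.47 in edgeR's fit. The choice on cord counts favours genes with high cord libraries, so differences between the regions are given for all 4 genes as a description, with no p.

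ENSRNOG00000050156 was high in a few animals of both regions, but only partly in the same ones. In the cord it had 0, 0.151, 4.31, 51.2 and 59.4 CPM in female hypoxia animals 1 to 5, and no read in any of the 5 female normoxia animals, which allows up to 0.0569 CPM over that group for counting error alone. The male cords had 0, 0, 12.3, 0 and 1.57 CPM under hypoxia, against 244, 1.05, 93.3, 0 and 0.698 CPM under normoxia. The highest cord of the 20 was thus that of male normoxia animal 1, and every group held a cord with no read.

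The medullas of female normoxia animals did hold the transcript. ENSRNOG00000050156 had 0, 0.784, 0, 0.425 and 21.5 CPM in female hypoxia medullas, against 2.47, 0.175, 33.6, 0.0876 and 0.426 CPM in female normoxia medullas. The male medullas had 2.15, 0.836, 17.7, 87.2 and 96 CPM under hypoxia, against 187, 6.07, 0, 0.338 and 0.0547 CPM under normoxia. Of the animals on in the cord, 3 were on in the medulla as well and 2 were not, and 4 animals were on in the medulla alone, so the regions agreed in 14 of 20 (Fisher's exact test, p = 0.29, adjusted p = 1). Male normoxia animal 1 was the highest in both regions. Male normoxia animal 3 had 1366 reads in the cord and 0 in the medulla, and male hypoxia animal 4 had 0 in the cord and 1153 in the medulla.

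ENSRNOG00000046081 reached the highest levels of the 4 and agreed least between the regions. In the cord it had 0, 0.552, 65.5, 5.82 and 40.9 CPM in female hypoxia animals 1 to 5, against 0, 0.098, 0.227, 0.68 and 0 CPM in female normoxia animals. The male cords had 0.551, 0, 56.9, 77.1 and 2.25 CPM under hypoxia, against 45.3, 334, 839, 0 and 345 CPM under normoxia. Male normoxia cords thus held the 3 highest values, beside a library with no read.

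The order of the groups was different in the medulla. The female medullas had 0.074, 222, 1.32, 417 and 1.63 CPM of ENSRNOG00000046081 under hypoxia, against 518, 63.4, 94.9, 0 and 217 CPM under normoxia. The male medullas had 678, 457, 0.186, 37.8 and 158 CPM under hypoxia, against 0.0486, 0, 5.72, 21.1 and 0.875 CPM under normoxia. By median, male hypoxia at 158 CPM came first, then female normoxia at 94.9, female hypoxia at 1.63 and male normoxia at 0.875 CPM, and neighbours in this order overlapped. The male normoxia group, which was highest in the cord, was lowest in the medulla, and the female normoxia group had 4 of 5 animals on in the medulla and 0 of 5 in the cord. Only 5 of 20 animals agreed, with 3 on in both regions, 6 in the cord alone, 9 in the medulla alone and 2 off in both (Fisher's exact test, p = 0.0648, adjusted p = 0.877). Male normoxia animal 2 had 5076 reads in the cord and 0 in the medulla, and male hypoxia animal 2 had 0 reads in the cord and 6009 in the medulla.

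Between the regions, ENSRNOG00000046081 had a log2 fold change of -2.41 for cord over medulla with SE 0.98. Its level averaged 90.7 ± 204 CPM in the cord and 145 ± 209 CPM in the medulla (SD, n = 20 each). The fold change averages the groups on the log scale, and the female normoxia cords held only 9 reads of this gene in all. Blocking by animal gave -2.10 with SE 1.77. ENSRNOG00000015972 averaged 32.4 ± 51.3 CPM in the cord and 27.5 ± 42.7 CPM in the medulla, with a log2 fold change of 0.19 and SE 0.93. With each animal as a block its SE fell to 0.25, at a log2 fold change of -0.02. ENSRNOG00000050156 averaged 23.4 ± 57.8 CPM in the cord and 22.8 ± 47.8 CPM in the medulla. Its fitted fold rests on a cord group with no read and is not given. Between the regions edgeR called 1 of the 4 genes, against 24.4% of 14832 genes, and DESeq2 3 of the 4, against 27.1% of 14679 genes. As cord counts chose the genes, nothing is read from these counts.

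The medulla libraries were then compared by exposure and by sex. None of the 4 genes was called in any of the 5 comparisons with edgeR. The share of the 14151 genes called was 0% for exposure in females, in males and for the interaction of sex and exposure, 0.0777% for sex under hypoxia and 0.0707% for sex under normoxia. Of the 20 tests of the 4 genes, 8 had an unadjusted p under 0.05, against 8.19% of the tests of all genes over the 5 comparisons, with 0.862% for exposure in males and 15.4% for exposure in females as the lowest and highest share. The highest share moved with single libraries. It was 1194 of 14364 genes without female hypoxia medulla replicate 3 and 3409 of 14358 genes without female hypoxia medulla replicate 5. The tests of a gene share libraries, so the 8 are not separate results. They include tests of ENSRNOG00000015972, whose medullas repeated the cord values that chose it, so nothing is read from their number. Over the same comparisons limma voom with quality weights called 0 of the 20, against 0.0551% of all its tests, and DESeq2 called 1, against 0.172% of all its tests.

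That call was for ENSRNOG00000015972 between female hypoxia and female normoxia medullas. Its level averaged 0.514 ± 0.461 CPM in female hypoxia and 58.6 ± 53.8 CPM in female normoxia medullas (SD, n = 5 each), a log2 fold change of -6.74 with SE 2.12 (edgeR adjusted p = 0.246, DESeq2 adjusted p = 0.0187). DESeq2 called 0.433% of 13853 genes in this comparison. The animals are those whose cords chose the gene and the regions agree in all of them, so the medulla gives no independent test of exposure for this gene. The groups overlapped, since 2 normoxia animals were low as well. In males the log2 fold change was -1.14 with SE 1.56 (edgeR adjusted p = 1), with 1 high hypoxia medulla and 2 high normoxia medullas. The difference between the sexes in this response was -5.60 on the log2 scale with SE 2.53 (edgeR adjusted p = 0.785). It rested on 1 animal: without male hypoxia medulla replicate 5 it was -0.85, and the log2 fold change in males was -5.86 (edgeR adjusted p = 0.995 and 1).

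None of the other 3 genes was called in the female medulla. ENSRNOG00000057527 averaged 1.12 ± 0.747 CPM in female hypoxia and 4.51 ± 7.53 CPM in female normoxia medullas, with a log2 fold change of -2.02 and SE 0.82 (edgeR adjusted p = 0.271). Without female normoxia medulla replicate 4 that fold change was 0.01, so this 1 library decided it. ENSRNOG00000050156 and ENSRNOG00000046081 had log2 fold changes of -0.56 (SE 1.85) and -0.56 (SE 1.67) in female medullas, with edgeR adjusted p values of 0.898 and 0.883. Neither direction held without single libraries: the value of ENSRNOG00000050156 was 2.55 without female normoxia medulla replicate 3 and -4.29 without female hypoxia medulla replicate 5, and that of ENSRNOG00000046081 was 0.46 without female normoxia medulla replicate 1. In male medullas ENSRNOG00000046081 averaged 266 ± 292 CPM under hypoxia and 5.56 ± 9.03 CPM under normoxia (SD, n = 5 each), a log2 fold change of 5.63 with SE 2.05 that did not pass (edgeR adjusted p = 1, unadjusted p = 0.0129). In the male cord its averages lay the other way, at 27.4 ± 36.9 CPM under hypoxia and 313 ± 335 CPM under normoxia.

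Of the sex differences in the medulla, those with an unadjusted p under 0.05 were in 3 genes. ENSRNOG00000015972 averaged 0.514 ± 0.461 CPM in females and 15.2 ± 32.7 CPM in males under hypoxia (SD, n = 5 each), a log2 fold change of -4.84 with SE 2.01 (edgeR adjusted p = 0.311), which was -0.11 without male hypoxia medulla replicate 5. Under normoxia ENSRNOG00000046081 averaged 179 ± 205 CPM in females and 5.56 ± 9.03 CPM in males, a log2 fold change of 5.07 with SE 2.00 (edgeR adjusted p = 1). ENSRNOG00000057527 averaged 4.51 ± 7.53 CPM in females and 0.89 ± 0.373 CPM in males under normoxia, a log2 fold change of 2.38 with SE 0.83 (edgeR adjusted p = 1), and the value without female normoxia medulla replicate 4 was 0.38. Each of these values thus rested on 1 library, except that of ENSRNOG00000046081, where 4 of 5 female and 2 of 5 male medullas were on.

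An on-off pattern of this kind was not limited to the 4 genes. With a highest library of at least 20 CPM and a lowest under 1 CPM among the 10 libraries of a sex, 58 genes had it in the cord and 237 in the medulla, of 23253 genes with any count. The 30 genes with it in both regions were 51.7% of those of the cord and 12.7% of those of the medulla. All 4 genes met it in the cord, by which they were chosen, and 3 in the medulla, where ENSRNOG00000057527 did not. On the low side, 1 library under 1 CPM is enough for the pattern. Female hypoxia medulla replicate 3 had counts in 13379 genes, against 17250 to 17850 in the other 4 of its group. The genes were not counted without this library, so its part in the 237 and in the 30 was not tested. The counts of cord and medulla are therefore not compared. Among the 58 genes, 9 agreed between cord and medulla in 20 of 20 animals, ENSRNOG00000015972 being 1 of them, and the median was 14 animals. ENSRNOG00000050156 was at that median, 45 of the 58 agreed in more animals than ENSRNOG00000057527, and the 5 animals of ENSRNOG00000046081 were the lowest value among the 58. The number of animals that agree is bounded by how many libraries are on. With 11 cords and 1 medulla on, ENSRNOG00000057527 could agree in no more than the 10 animals seen. A gene on in 1 cord and 0 medullas agrees in 19 whatever the pairing. This comparison of the 58 genes is therefore a description, with no test.

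**Figure D3:**
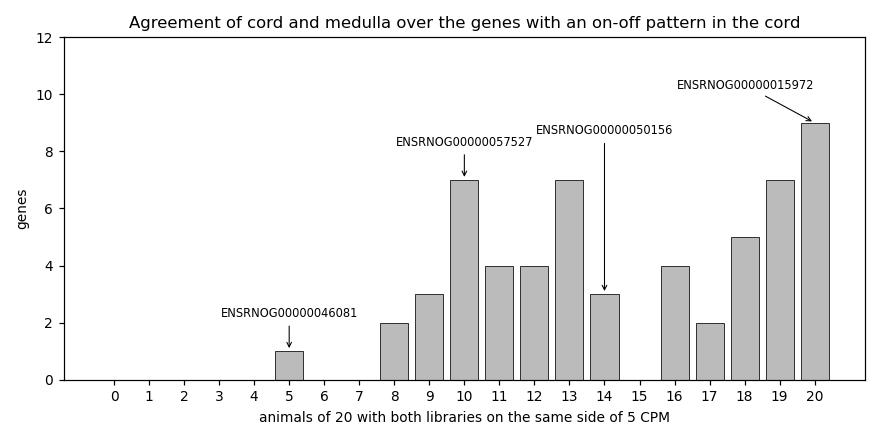
Number of genes (bars) by how many of the 20 animals had cord and medulla libraries on the same side of 5 CPM, over the 58 genes with an on-off pattern in the cord; arrows mark the bars that hold the 4 genes. ENSRNOG00000015972 is in the bar of 9 genes at 20 animals, and ENSRNOG00000046081 stands alone at 5.

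The 4 genes also differed in whether other genes shared their pattern. Likeness was measured by Pearson's r of log2(CPM + 0.5) over the 40 libraries, which share animals, and the 3 most similar of 14831 genes were taken for each. For ENSRNOG00000057527 these were ENSRNOG00000058555 (r = 0.97), ENSRNOG00000054493 (r = 0.95) and ENSRNOG00000051850 (r = 0.87). ENSRNOG00000058555 was on in the same 11 cord libraries, with 0.63 to 3.16 CPM in female hypoxia cords and 24.6 to 43.2 CPM in female normoxia cords. It was on in 1 medulla library, the same one, at 15 CPM. ENSRNOG00000054493 was on in all 11 and in 2 more cord libraries, and it reached 15.2 CPM in that medulla library. ENSRNOG00000051850 was on in 4 of the 11 cord libraries and in no medulla library, where its highest level was 4.73 CPM, again in female normoxia medulla replicate 4. Pearson's r within the medulla was 0.88, 0.81 and 0.55, where ENSRNOG00000057527 was above 5 CPM in that 1 library alone.

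For ENSRNOG00000046081 the most similar genes were ENSRNOG00000060518 (r = 0.85), ENSRNOG00000054945 (r = 0.85) and ENSRNOG00000047746 (r = 0.79). ENSRNOG00000060518 was on in all 9 cord and all 12 medulla libraries where ENSRNOG00000046081 was on, and in 3 and 5 more. ENSRNOG00000047746 was on in all 40 libraries and far more abundant, with medians of 203 CPM in female normoxia cords and 5037 CPM in male normoxia cords. ENSRNOG00000046081 and ENSRNOG00000057527 were on together in 2 of 20 cord libraries and 0 of 20 medulla libraries. In the cord and medulla, ENSRNOG00000046081 was on in 9 and 12 libraries and ENSRNOG00000057527 in 11 and 1. In the female cords that chose them, ENSRNOG00000046081 was higher under hypoxia and ENSRNOG00000057527 under normoxia. With that choice, and with 1 medulla library on for ENSRNOG00000057527, nothing is read from the counts of libraries on together.

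By Pearson's r, no gene followed ENSRNOG00000015972 or ENSRNOG00000050156 so closely. The highest r was 0.59 for ENSRNOG00000015972, with ENSRNOG00000007660, followed by ENSRNOG00000005623 (r = 0.57) and ENSRNOG00000003400 (r = 0.54). ENSRNOG00000007660 ran only from 5.67 to 16.5 CPM in the cord, with no gap between high and low libraries of the size seen in ENSRNOG00000015972. For ENSRNOG00000050156 the 3 genes were ENSRNOG00000046109 (r = 0.59), ENSRNOG00000016220 (r = 0.58) and ENSRNOG00000022896 (r = 0.58). By rank they lay closer, with Spearman's rho of 0.6, 0.7 and 0.75. ENSRNOG00000022896 ran from 0 to 9.15 CPM in the cord and was on in 9 cord and 13 medulla libraries. These held all 5 cord libraries, and 6 of the 7 medulla libraries, in which ENSRNOG00000050156 was on. ENSRNOG00000050156 and ENSRNOG00000046081 were on together in 5 cord libraries, which are all 5 in which ENSRNOG00000050156 was on, and in 3 medulla libraries, of 7 and 12. Both were higher under hypoxia in the female cords that chose them, so nothing is read from the cord count.

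**Figure D4:**
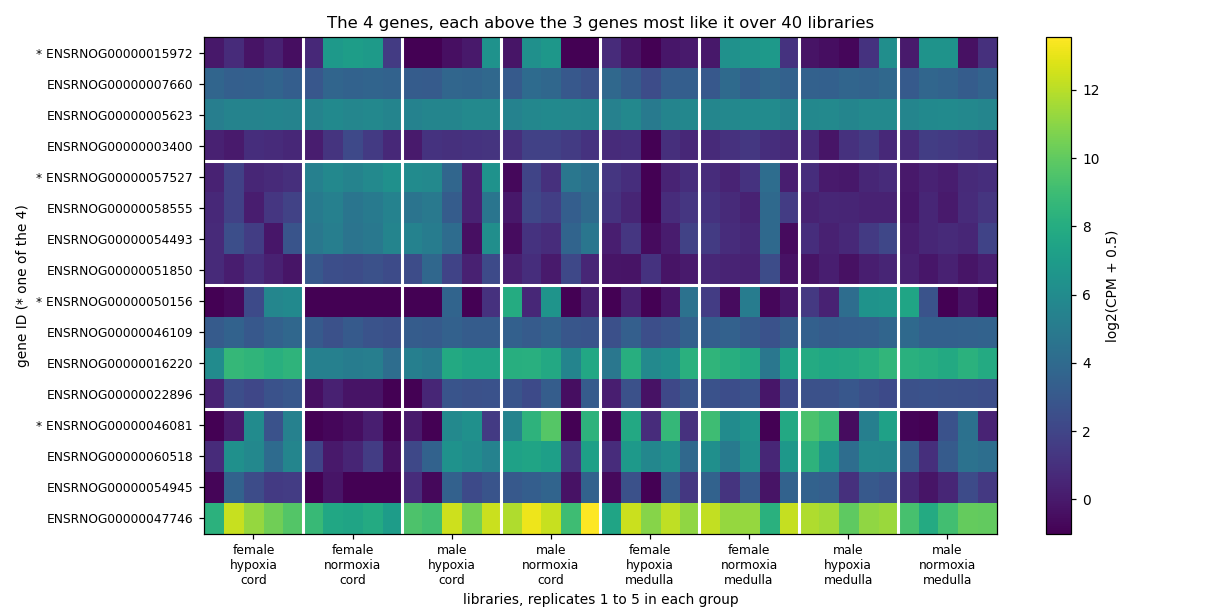
Heat map of log2(CPM + 0.5) in the 40 libraries (columns, by group) for each of the 4 genes (starred rows) above the 3 genes most like it. The rows of ENSRNOG00000057527 and ENSRNOG00000046081 resemble those of their companions, with r of 0.79 to 0.97, but not in every library: in female hypoxia cord replicate 2 ENSRNOG00000046081 is dark at 0.07 and ENSRNOG00000060518 bright at 6.30. The companions of ENSRNOG00000015972, at 0.59 or lower, do not show its contrast. Those of ENSRNOG00000050156 are also at 0.59 or lower. Of them, ENSRNOG00000022896 (0 to 9.15 CPM in the cord) and ENSRNOG00000016220 (18 to 418 CPM) show part of its contrast in the cord. ENSRNOG00000046109 (5.25 to 13.8 CPM) does not.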

How the data were processed

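The authors deposited 1 table of unnormalized counts (whole reads per Ensembl rat gene ID), and its 40 columns were matched to libraries by label. TopHat2 2.1, HTSeq, edgeR and build rn6 are listed in the submitters' processing notes without roles. Annotation release, strand setting and filters are unstated there, so overlapping or near-identical genes may share reads. Of 47357 reference rows, 0 carried an Ensembl ID, so no sequence, neighbouring gene, family or marker gene could be given. Within groups, any pair of libraries differed by a chi-square of at least 10.9 per degree of freedom, so none was a duplicate.

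CPM used raw library totals. Tests ran over all genes in edgeR 4.0.16 (R 4.3.3), as quasi-likelihood F tests with TMM factors and filterByExpr with a minimum count of 10, over the 20 medulla libraries or, for region, all 40; all 4 genes passed the filter. A call needed an adjusted p (Benjamini-Hochberg) below 0.05. Agreement p-values (scipy 1.17.1) were adjusted over all genes tested, not over the 4 as first planned. DESeq2 1.42.0 gave no adjusted p for ENSRNOG00000057527 in the medulla. Alternatives also included limma 3.58.1.

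Replicates were separate animals, with 5 litters per exposure. Libraries sharing a number are the 2 regions of an animal by the design and labels. Deviations from group means correlated at 0.0673 to 0.424 in 20 of 20 such pairs, and over 100 genes with the largest such deviations, the 4 left out, 18 of 20 medullas correlated best with their own cord, against 6 of 20 over all 14832 genes. On simulated data with 100 genes changed 2-fold and 100 changed 4-fold, 43% and 81% were recovered for exposure in the female medulla over 13980 genes, with 3 calls among unchanged genes. For region over 14626 genes these were 76% and 97%, with 12 such calls. The counts were drawn around the overall mean of each gene, with no on-off pattern between animals. These shares therefore do not describe the tests of the 4 genes. The 4 genes, the 5 CPM limit and the lists were chosen with earlier results of these data known. Named genes are the 4 and, for each, the 3 most similar by Pearson's r. Intervals and limits at 0 (3 counts) cover counting error only.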

Additional observations from a re-analysis of the deposited data

Results flagged for a closer look

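In 9 of 32 pairs of gene and group, 1 of the 5 libraries stood far above the rest by the gap to its nearest neighbour (Dixon's test at 95%), 3 of them in the cord. The test marks about 1 in 20 groups by chance, but the genes were chosen because some cord libraries stood high and others near 0. The medulla libraries took no part in the choice, though those of ENSRNOG00000015972 repeated its cord values. The number of such pairs is given as a description. ENSRNOG00000015972 was at 83.2 CPM in male hypoxia cord replicate 5 and at 73.6 CPM in the medulla of the same animal, where the next values were 0.499 and 1.66 CPM. ENSRNOG00000057527 was at 3.01 CPM in female hypoxia cord replicate 2 and at 18 CPM in female normoxia medulla replicate 4. ENSRNOG00000050156 was at 12.3 CPM in male hypoxia cord replicate 3, at 21.5 CPM in female hypoxia medulla replicate 5, at 33.6 CPM in female normoxia medulla replicate 3 and at 187 CPM in male normoxia medulla replicate 1. ENSRNOG00000046081 was at 21.1 CPM in male normoxia medulla replicate 4.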

How the results depend on the processing

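Of 540 alternative values of the 4 genes' fold changes, 514 kept direction and call, 3 gained a call (all with DESeq2) and 23 changed sign; none of these 23 values was called, and the cause was not tested. DESeq2 called 1 of the genes for exposure in the female medulla, where edgeR called 0, and 3 between the regions, where edgeR called 1. The agreement call of ENSRNOG00000015972 held in 24 of 26 alternatives and was lost at 1 CPM, with 15 animals agreeing (adjusted p = 1), and with pairings permuted within groups, with 20 agreeing (adjusted p = 0.308). The other 3 genes had no agreement call in any of their 76 alternatives. For ENSRNOG00000057527, with 11 cords and 1 medulla on at 5 CPM, no arrangement gives a Fisher's exact p below 0.45. At that limit its missing calls therefore say nothing about agreement. The 58 genes with an on-off pattern in the cord were 178 with a limit of 10 CPM and 27 with 50 CPM. With animal as a replicate block, the region fold change of ENSRNOG00000015972 was -0.02, and with limma voom -0.08; leaving out single libraries it ran from -1.36 to 1.36. With limma voom the log2 fold change was -0.12 for ENSRNOG00000057527 by exposure in males, 0.34 for ENSRNOG00000015972 by sex under hypoxia and 1.84 for ENSRNOG00000050156 by sex under normoxia. Leaving out single libraries, exposure in females ran from -2.30 to 0.01 for ENSRNOG00000057527, from -4.29 to 2.55 for ENSRNOG00000050156 and from -1.67 to 0.46 for ENSRNOG00000046081. Exposure in males ran from -0.14 to 0.26 for ENSRNOG00000057527 and from -0.52 to 4.66 for ENSRNOG00000050156. For ENSRNOG00000050156, sex under normoxia ran from -5.51 to 2.14 and the interaction from -5.23 to 2.45. Blocking the medulla fits by replicate number (replicate block), 0 of the 4 genes were called in any comparison. Same-numbered medullas are of different animals, and their correlations ran from -0.409 to 0.716. Whether those of the female and male groups of an exposure share a litter is not stated. Over the 12 likeness values Spearman's rho minus Pearson's r ran from -0.28 to 0.17, and 7 of the 12 genes were also among the 3 highest by rho. At the shallowest depth 5 CPM is 30 reads. Dropping the shallowest medulla library from the fits of groups it is not in, an alternative chosen after seeing the data, changed no call of the 4 genes for exposure in males or sex under normoxia.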
